A study of Arabidopsis thaliana with 18 samples.

Results

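The response of stn7 rosettes after 60 min in light that favours photosystem II was measured on 6 of the 18 arrays of the series, the 3 arrays of stn7 at 60 min and the 3 arrays of stn7 at 0 min. These arrays were chosen by their sample titles alone, and the change at 60 min was computed for 22746 probe sets. The line stn7 carries the T-DNA insertion SALK_073254 in the Col-0 background and is a single knockout line, so that an effect of the line other than the loss of STN7 cannot be told apart from it. The plants of all groups, WT (Col-0) included, grew for 20 days under constant white light (35 µE, 22 °C, 60% humidity) and then for 3 days in continuous light that favours photosystem I (PSI light). Those of the 60 min group were then moved to PSII light, which favours photosystem II, as were those of a 30 min group, and those of the 0 min group were taken straight from PSI light. Rosette leaves were harvested at an age of 23 days, each array held RNA from a pool of at least 250 plants, and each of the 6 groups (stn7 and WT at 0, 30 and 60 min) had 3 biological replicates. No group stayed in PSI light for a further 30 or 60 min, so a shift in light and a later harvest cannot be told apart within stn7 or within WT.

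STN7 is a protein kinase of the thylakoid membrane that is switched on when the plastoquinone pool, the electron carrier between the photosystems, is reduced. It phosphorylates antenna proteins of photosystem II, which lets part of the antenna move to photosystem I in a process called a state transition, and it is also needed for the slower adjustment of photosystem composition to light quality. Light that is rich in red, relative to far-red, is also sensed by phytochrome, the photoreceptor that represses shade avoidance genes. The transcript of STN7 itself is not analysed here, since no probe set carried its locus in the annotation used.

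In stn7 leaves, genes of shade avoidance, of auxin conjugation and of the low-energy programme were lower after 60 min in PSII light, together with genes for autophagy and for some subunits of the photosystems. Of the expansins and xyloglucan enzymes of the cell wall some were higher and some lower, and 2 of 8 EF-hand calcium sensors were higher. IAA29, a transcriptional repressor of the auxin response, had the largest fall of all probe sets assigned to 1 gene, and AT3G14200 had the largest rise among them. In all, 3769 of 22746 probe sets (16.6%) passed an adjusted p of 0.05 in limma, 2013 of them higher (8.85%) and 1756 lower (7.72%). The changes were mostly small, with a median size of 0.56 on the log2 scale among those called. Of the called changes 160 rises and 281 falls were at least 2-fold, and 7 rises and 20 falls at least 4-fold. For 6757 probe sets (29.7%) the 3 arrays at 60 min lay all above or all below the 3 arrays at 0 min.

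Values are log2 signals after RMA, a method that corrects background, equalises the distributions of the arrays and summarises the probes of each probe set. A signal can be compared between arrays for 1 probe set, but not between probe sets. Each change is a difference between group means (n = 3 arrays each), given ± its standard error in limma, with p-values adjusted over all probe sets by Benjamini-Hochberg. All signals lay between 2.53 and 14.02, and the medians of the arrays between 6.1 and 6.31. On the first principal component, with 39.8% of the variance, the 60 min arrays of stn7 (-19.1 to 6.14) overlapped with the 0 min arrays of stn7 (-23.4 to 12.1). On the second, with 19.6%, the 60 min arrays of stn7 scored between -36.3 and -30.4. There they lay apart from the 0 min arrays of stn7 (10.4 to 26.4) and the 60 min arrays of WT (-10.9 to -5.83). The 3' signal of 3 pairs of control probe sets exceeded the 5' signal by 1.69, 1.88 and 1.98 in stn7 at 60 min, against 1.67 ± 0.05 (SD, n = 3) in stn7 at 0 min, a measure that rises as RNA is less intact. The part of this difference in the changes below was not tested beyond a fit with it as a covariate, in which 2135 probe sets passed (1152 higher and 983 lower), and a fit without the 60 min arrays with the 2 highest values, in which 2130 passed (1108 and 1022).

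**Figure D1:**
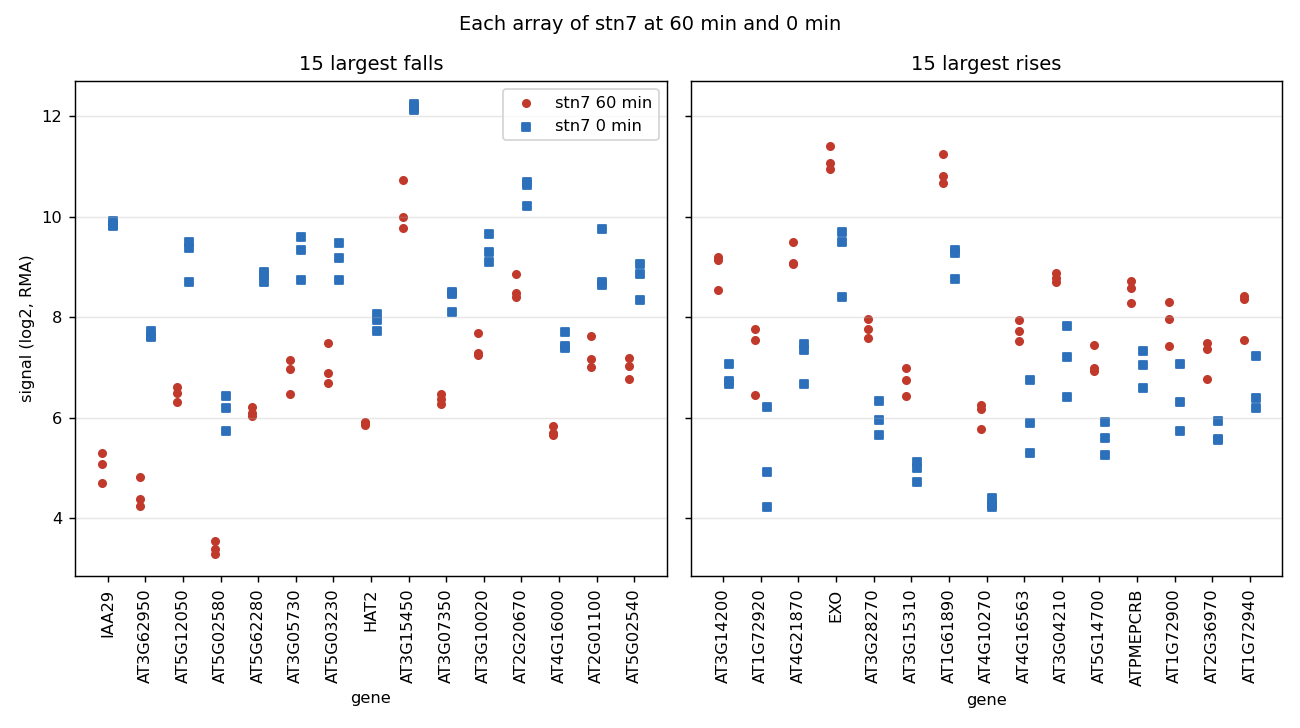
Log2 signal of each array for the 15 genes with the largest falls (left) and the 15 with the largest rises (right) in stn7, with circles for the 3 arrays at 60 min and squares for the 3 arrays at 0 min. The groups do not overlap for any of the 30 genes, which is a condition of their choice, and IAA29 has the widest gap, with signals of 4.70 to 5.31 at 60 min and 9.82 to 9.92 at 0 min.

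Shade avoidance is the growth response by which a plant under a canopy elongates, and auxin drives it. IAA29, induced by shade and auxin, had signals of 5.31, 4.70 and 5.09 at 60 min, against 9.92, 9.83 and 9.82 at 0 min. All 60 min arrays lay more than 4 log2 units under all 0 min arrays, and the fall was 28.3-fold (-4.82 ± 0.22, adjusted p = 3.45e-10). HAT2, a homeodomain-leucine zipper regulator of the shade response, had 5.93, 5.90 and 5.85 at 60 min, against 8.07, 7.94 and 7.72 at 0 min. This was a tight drop in every array, of 4.05-fold (-2.02 ± 0.11, adjusted p = 4.85e-09). Enzymes that couple auxin to amino acids are encoded by GH3 genes, and 3 of these fell as well. WES1 (GH3.5) had 7.10, 6.67 and 6.39 at 60 min, against 8.51, 8.06 and 7.93 at 0 min (-1.44 ± 0.23, adjusted p = 0.000297). GH3.17 fell by 1.01 ± 0.13 and GH3.3 by 0.97 ± 0.15 on the log2 scale, both without overlap between the groups. Of the 8 measured genes of the shade avoidance and auxin list, 5 fell and 0 rose, against 7.72% falls and 8.85% rises over all probe sets, and the median change was -0.99, against 0.01 over all probe sets. This and the other gene lists were chosen with earlier results of these data known, so their counts are descriptions and no independent evidence. The remaining members of the shade avoidance and auxin list did not pass the test. BIM1, a brassinosteroid-linked regulator, changed by -0.36, YUC2 of auxin synthesis by -0.14 and FHL, which carries phytochrome A into the nucleus, by 0.17.

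Plants short of carbon or kept in the dark switch on a low-energy programme under the kinase SnRK1, which breaks down protein and amino acids for energy. Of the 10 measured genes of this list, 8 fell and 1 rose in stn7 at 60 min, with a median change of -1.48, against the same shares over all probe sets. Several loci entered this list with earlier results of these data known, so the count is a description and no independent evidence of a direction. AKINBETA1, a regulatory subunit of SnRK1, had 8.44, 8.001 and 7.66 at 60 min, against 9.92, 9.71 and 9.55 at 0 min (-1.69 ± 0.18, adjusted p = 4.26e-06). AT3G15450 had 10.73, 9.998 and 9.78 at 60 min, against 12.12, 12.19 and 12.25 at 0 min (-2.02 ± 0.25, adjusted p = 2.69e-05). Both genes were lower in each 60 min array than in any 0 min array. AT2G20670 fell by 1.93 ± 0.23, SIS by 1.76 ± 0.17, AT1G23390 by 1.60 ± 0.15 and AT3G15630 by 1.36 ± 0.18 on the log2 scale. MCCA and MCCB, which encode the subunits of methylcrotonoyl-CoA carboxylase in leucine breakdown, fell by 0.94 ± 0.19 and 0.66 ± 0.14. The transcription factor gene BZIP53 rose by 0.33 (adjusted p = 0.0368), with 10.62, 10.41 and 10.28 at 60 min, against 9.93, 10.20 and 10.20 at 0 min, and SWEET4, a sugar transporter gene, changed by 0.02 without passing the test. The rise of BZIP53 was not called with either covariate, the 3' to 5' difference or the axis described below.

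Autophagy delivers cell contents to the vacuole for breakdown, and ATG8 proteins are the ubiquitin-like tags of its membranes. Of 10 measured autophagy genes 5 fell and 0 rose, with a median change of -0.37, against 7.72% falls and 8.85% rises over all probe sets. ATG8E had 7.59, 7.68 and 7.54 at 60 min, against 8.44, 9.26 and 9.31 at 0 min (-1.40 ± 0.24, adjusted p = 0.000632). ATG8F had 9.47, 9.78 and 9.82 at 60 min, against 10.71, 10.97 and 10.81 at 0 min (-1.14 ± 0.13, adjusted p = 7.17e-06). In both genes every 60 min array was lower than every 0 min array. ATG8H fell by 0.65 ± 0.15, ATG8C by 0.61 ± 0.14 and ATG3, the enzyme that attaches ATG8 to lipid, by 0.41 ± 0.10 on the log2 scale. The other ATG8 probe sets did not pass, with changes between -0.33 for APG8A and 0.31 for ATG8B. The call of ATG3 was lost with the 3' to 5' covariate (adjusted p = 0.0741).

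**Figure D2:**
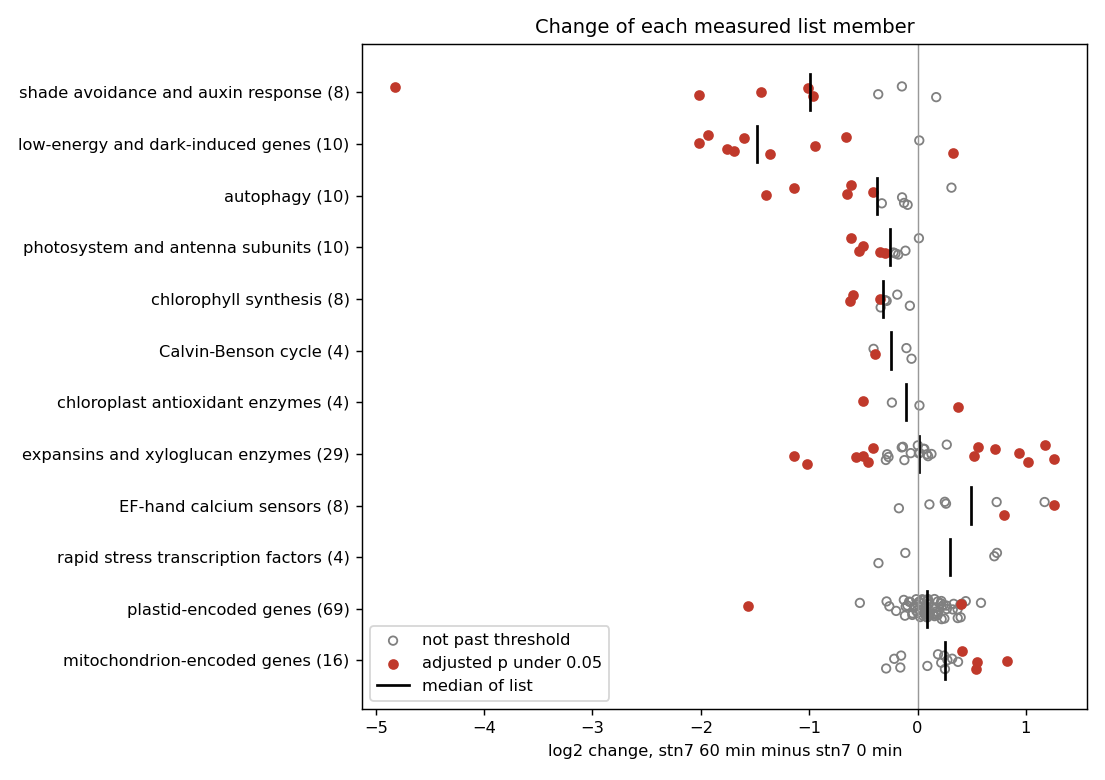
Log2 change in stn7 (60 min minus 0 min) of each measured member of 12 gene lists, 1 list a row with the number of members in brackets. Filled circles passed an adjusted p of 0.05, open circles did not, and bars mark the medians, of which those of the low-energy list (-1.48) and the shade avoidance list (-0.99) lie farthest to the left.

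Nuclear genes for the photosystems and for chlorophyll changed less, and those that passed the test fell. Of 10 measured photosystem and antenna genes 5 fell and 0 rose (median -0.26), against 7.72% falls over all probe sets. With the 3' to 5' covariate 3 fell, with a median of -0.34. The median was -0.38 without both 60 min arrays of highest 3' to 5' difference. LHCB4.2, a gene for the minor antenna protein CP29, had 12.44, 12.69 and 12.68 at 60 min, against 13.33, 13.29 and 13.03 at 0 min (-0.61 ± 0.10, adjusted p = 0.000319). PSB27, for a factor of photosystem II assembly, had 11.12, 11.22 and 11.14 at 60 min, against 11.64, 11.79 and 11.67 at 0 min (-0.54 ± 0.10). PSBY and PSBW, small subunits of photosystem II, fell by 0.50 ± 0.09 and 0.30 ± 0.09 on the log2 scale, and PSAN, a lumenal subunit of photosystem I, by 0.35 ± 0.11. Every change was under 2-fold. LHCB4.1 (-0.20) and LHCB4.3 (-0.22), which encode the same antenna protein, did not pass. The calls of PSBW and PSAN were weak: PSBW missed the threshold when any array but 60 min replicate 2 was left out (adjusted p 0.0627 to 0.14), and PSAN without 0 min replicates 2 or 3 or 60 min replicates 1 or 3 (0.103 to 0.164).

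In chlorophyll synthesis 3 of 8 measured genes fell and 0 rose (median -0.32), against 7.72% falls and 8.85% rises over all probe sets. With the 3' to 5' covariate 2 fell. These shares are also the background for the Calvin-Benson, antioxidant and thioredoxin counts below. CHLM, which methylates magnesium protoporphyrin, had 11.29, 11.42 and 11.26 at 60 min, against 11.90, 12.11 and 11.84 at 0 min (-0.63 ± 0.11, adjusted p = 0.000673). PORB, a light-dependent protochlorophyllide reductase, had 11.22, 11.33 and 11.50 at 60 min, against 12.00, 11.94 and 11.89 at 0 min (-0.60 ± 0.11, adjusted p = 0.00141). In both genes the highest array at 60 min lay under the lowest at 0 min. HEME1, of an early step shared with haem, fell by 0.35 ± 0.09 on the log2 scale, a call lost without 0 min replicate 1 (adjusted p = 0.0605). Of 4 genes of the Calvin-Benson cycle, which fixes carbon dioxide, PRK passed (-0.39 ± 0.12, adjusted p = 0.04), but not without 0 min replicates 1 or 2 or 60 min replicates 1 or 3 (0.102 to 0.134), and SBPASE did not (-0.41, adjusted p = 0.053). Among 4 antioxidant genes the thylakoid ascorbate peroxidase TAPX fell by 0.50 ± 0.11 on the log2 scale. The stromal enzyme gene SAPX rose by 0.38 ± 0.10 (adjusted p = 0.0177), a call lost without 0 min replicate 1 (0.0903) or 60 min replicate 2 (0.0985). TRXF2, a thioredoxin that activates Calvin-Benson enzymes in the light, fell by 0.64 ± 0.15 and was the only called member among 10 glutaredoxins and thioredoxins. That count is near the 7.72% of falls over all probe sets. PGRL1B, CaS and AT4G01150 (CURT1A), all of the thylakoid membrane, changed by -0.10, -0.23 and -0.22 without passing the test.

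These photosynthesis genes include both mesophyll markers that fell. The mesophyll list had 3 of 16 names measured (PSBW, PSAN and RCA), with summed log2 signals between 36.97 and 37.47 at 60 min and between 37.78 and 38.17 at 0 min. Both falls, of PSBW and PSAN, were lost with the 3' to 5' covariate and without both 60 min arrays of highest 3' to 5' difference. In RNA of whole leaves fewer cells of a type and less RNA per cell cannot be told apart. Of the other cell types, 1 guard cell marker (FMA, 6.99 to 7.18 at 60 min and 6.90 to 7.13 at 0 min), 1 vascular marker (SWEET11, 11.30 to 11.65 and 11.01 to 11.51) and 3 root markers were measured, and 0 of these 5 passed the test in limma. Of the root markers, the hair cell expansin genes EXPA7 and EXPA18 stayed between 3.79 and 4.17 at 60 min, near the low end of the scale, while PYK10, a beta-glucosidase gene, had signals between 12.32 and 12.53 at 60 min and between 11.94 and 12.34 at 0 min. Markers of flowers, seeds and dividing cells had no named probe set. The part of cell composition in the results was not tested.

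Genes of light signalling and of stress gave mixed results. HYH, the close relative of the light-response factor HY5, had 4.72, 4.93 and 5.69 at 60 min, against 4.39, 4.54 and 3.95 at 0 min (0.82 ± 0.22, adjusted p = 0.0155), all on dim probe sets. Its rise was not called without 0 min replicate 3 (0.0725) or 60 min replicate 3 (0.0869). GI, the clock gene GIGANTEA, had 8.81, 8.86 and 8.95 at 60 min, against 8.35, 8.26 and 8.17 at 0 min (0.61 ± 0.10, adjusted p = 0.000387), an even rise over the arrays. Of 4 rapid stress transcription factors 0 passed (3 of them had an adjusted p between 0.131 and 0.249, and WRKY6 0.588), while 2 passed an unadjusted p of 0.05 in limma, 1 in each direction. WRKY53, a stress and senescence regulator, had 7.89, 7.06 and 6.98 at 60 min, against 6.39, 6.93 and 6.49 at 0 min, so 60 min replicate 1 carried most of the difference. Of 8 EF-hand calcium sensors 2 rose and 0 fell, against 8.85% rises over all probe sets, and 1 rose with the within-group axis (described below) as a covariate. CML42 had 8.62, 8.62 and 8.27 at 60 min, against 6.94, 7.50 and 7.29 at 0 min (1.26 ± 0.19, adjusted p = 0.000182). The other, AT1G76640 (CML39), had 6.16, 4.60 and 4.96 at 60 min, against 4.52, 4.24 and 4.57 at 0 min (0.80 ± 0.25), and was not called without 60 min replicate 1 (0.126), 0 min replicate 1 (0.0659) or 0 min replicate 2 (0.118).

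Genes for enzymes and expansins of the cell wall went both ways. Expansins loosen the wall, and xyloglucan enzymes (XTH) cut and rejoin its tethers. Of 29 measured genes of these families 7 rose and 6 fell, against 8.85% rises and 7.72% falls over all probe sets, and the median change was 0.01. XTH33 had 8.32, 7.25 and 7.63 at 60 min, against 5.98, 6.60 and 6.83 at 0 min (1.26 ± 0.25, adjusted p = 0.00151). XTH16 had 10.03, 9.83 and 9.79 at 60 min, against 8.02, 9.09 and 9.02 at 0 min (1.17 ± 0.22). The expansin-like EXLA1 (1.02 ± 0.21), XTH18 (0.94 ± 0.17), XTH19 (0.72 ± 0.16), XTH32 (0.56) and EXPA15 (0.52) rose as well. Among the members that passed, the XTH genes were higher and most expansins lower. With the 3' to 5' covariate 7 members rose and 3 fell, and without both 60 min arrays of highest 3' to 5' difference 6 rose and 2 fell. EXPA8 had 9.74, 9.84 and 9.37 at 60 min, against 10.78, 10.63 and 10.94 at 0 min (-1.14 ± 0.11, adjusted p = 2.53e-06). EXPA16 (-1.02 ± 0.16), EXPB1 (-0.56), EXPA4 (-0.50), EXPB3 (-0.46) and EXLB1 (-0.41) were the other falls.

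Among the 25 largest rises, EXO (EXORDIUM), a brassinosteroid-responsive gene of cell expansion, had 11.39, 10.96 and 11.07 at 60 min, against 8.40, 9.50 and 9.70 at 0 min (1.94 ± 0.31, adjusted p = 0.000298). ATPMEPCRB, which encodes a pectin methylesterase, had 8.71, 8.58 and 8.28 at 60 min, against 7.06, 7.32 and 6.58 at 0 min (1.54 ± 0.20). Fes1A, a cofactor of HSP70 chaperones, had 7.08, 7.89 and 7.67 at 60 min, against 5.92, 6.47 and 5.81 at 0 min (1.48 ± 0.21). OCT5, a transporter of the organic cation family, had 6.92, 7.29 and 7.13 at 60 min, against 5.84, 5.86 and 5.65 at 0 min (1.33 ± 0.10, adjusted p = 2.6e-07). OCT5 had the most even rise of these, more than 1 log2 unit between the lowest 60 min array and the highest 0 min array. The genes known by locus alone that follow the 10 largest rises were AT5G14700 (1.54), AT1G72900 (1.53), AT2G36970 (1.52), AT1G72940 (1.502), AT1G28600 (1.46), AT5G05600 (1.46), AT4G30470 (1.43), AT3G09440 (1.42), AT4G32800 (1.41), AT4G34950 (1.38) and AT2G31730 (1.35). AT5G05600 was uneven, with 8.98 in 60 min replicate 1 and 7.54 and 7.61 in the others, against 6.18, 6.54 and 7.04 at 0 min. AT4G30470 had 9.996, 9.9999 and 10.09 at 60 min, against 8.54, 8.69 and 8.59 at 0 min, a gap far wider than the spread. Of the 50 largest rises and falls, 0 lost their call in limma when any 1 array was left out. These genes were picked on the same arrays for large changes without overlap, so this count is no independent support. With the 3' to 5' covariate 2 lost their call, AT1G72920 (adjusted p = 0.072) and AT1G72940 (0.0536). Without both 60 min arrays of highest 3' to 5' difference the rise of AT1G72900 was 1.05, against 1.53. That of AT5G05600 was then 2.39, against 1.46.

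Further rises with a gene symbol were chosen after their values were seen. GTR1, a transporter of glucosinolates, rose by 1.23 ± 0.15, and AOP1, an enzyme of a family that modifies glucosinolates, by 1.00 ± 0.15. OPCL1, of jasmonate synthesis, rose by 0.99 ± 0.18. THE1, a receptor kinase that senses the state of the wall, had 9.81, 9.61 and 9.72 at 60 min, against 8.45, 9.08 and 8.93 at 0 min (0.89 ± 0.15). GLR2.7, a glutamate receptor-like channel, rose by 0.98 ± 0.13, the actin gene ACT11 by 0.88 ± 0.15 and CYTC-2, for the electron carrier cytochrome c of mitochondria, by 0.94 ± 0.16. PDC2, a pyruvate decarboxylase of fermentation, had 9.21, 9.31 and 8.98 at 60 min, against 8.08, 8.36 and 8.39 at 0 min (0.89 ± 0.11, adjusted p = 3.48e-05). These genes belong to different processes. That their groups did not overlap between the times was a condition of their choice, and 29.7% of all probe sets did not overlap either. RING1, a ubiquitin ligase gene, rose by 1.00 ± 0.29, but not without 0 min replicate 1 (adjusted p = 0.131), 60 min replicate 2 (0.0508) or 60 min replicate 3 (0.0813).

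Among the 25 largest falls, AT3G10020 had 7.25, 7.30 and 7.69 at 60 min, against 9.66, 9.30 and 9.09 at 0 min (-1.94 ± 0.21, adjusted p = 7.07e-06). AT3G16800 had 7.20, 6.95 and 6.999 at 60 min, against 8.84, 8.85 and 8.55 at 0 min (-1.70 ± 0.12, adjusted p = 1.19e-07). The signals of both were lower in every 60 min array by more than 1.3 log2 units. AT2G01100 fell by 1.76 ± 0.35 with a wider spread, at 7.16, 7.01 and 7.63 at 60 min, against 9.76, 8.64 and 8.70 at 0 min. The other loci from rank 11 to 25 were AT4G16000 (-1.77), AT5G02540 (-1.76), AT1G49210 (-1.76), P1R3 (-1.72), AT4G33666 (-1.71), AT1G21050 (-1.70), AT4G04630 (-1.66), AT4G15700 (-1.63) and AT2G15830 (-1.62), beside the low-energy genes already given. AT4G15700 ended at 4.61, 4.096 and 3.90 at 60 min, near the low end of the scale, as did AT5G02580, with 3.39, 3.55 and 3.3004.

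Of 4 measured genes of the list of RNA splicing and RNA-binding proteins 1 rose, AT3G09720 (0.36, adjusted p = 0.0259), and 0 fell (median under 0.01). Over all probe sets 8.85% rose and 7.72% fell. The falls with a gene symbol given next were chosen after their values were seen, and some of them act on RNA. TGH, a cofactor of microRNA processing, had 5.75, 5.90 and 6.39 at 60 min, against 7.54, 7.15 and 7.10 at 0 min (-1.25 ± 0.19, adjusted p = 0.000173). DDL, which stabilises microRNA precursors, had 5.80, 5.91 and 6.20 at 60 min, against 8.14, 7.03 and 6.96 at 0 min (-1.41 ± 0.36). The splicing factor gene U2AF35B had 7.58, 7.50 and 7.92 at 60 min, against 9.09, 8.56 and 8.47 at 0 min (-1.04 ± 0.21). In each of these genes 0 min replicate 1 was the highest array. Without it DDL was not called (adjusted p = 0.0737), nor was CYP59, a cyclophilin that binds RNA polymerase II (0.0921; -1.06 ± 0.29 with all arrays), which was also lost without 60 min replicates 1 (0.0601) or 2 (0.0751). Other falls were those of 3xHMG-box2, for a chromosome-binding protein (-1.55 ± 0.28), UPB1, a bHLH regulator (-1.39 ± 0.33), TOPII, a DNA topoisomerase (-0.99 ± 0.21), and SECE1. SECE1, a subunit of the translocase of the thylakoid membrane, had 7.97, 7.85 and 7.95 at 60 min, against 9.06, 9.10 and 8.91 at 0 min (-1.10 ± 0.12, adjusted p = 7.9e-06), the tightest of these.

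Labelling was primed on poly(A) tails, so transcripts of the organelles are poorly represented on these arrays. Of 16 mitochondrion-encoded genes 4 rose and 0 fell (median 0.25), and of 69 plastid-encoded genes 1 rose and 1 fell (median 0.09), against 8.85% rises and 7.72% falls over all probe sets. With the 3' to 5' covariate 2 of the mitochondrial genes rose, and of the plastid genes 1 rose and 0 fell. The cytochrome oxidase gene cox2 had 6.71, 6.19 and 6.11 at 60 min, against 5.13, 5.401 and 6.001 at 0 min (0.83 ± 0.18, adjusted p = 0.00432), with 0 min replicate 3 close to the 60 min arrays. ccb452, of cytochrome c maturation, rose by 0.54 ± 0.12. The complex I genes nad5 (0.55 ± 0.17) and nad9 (0.41 ± 0.11) rose too, but nad5 was lost without 0 min replicates 1 (adjusted p = 0.062) or 2 (0.14) or 60 min replicates 1 (0.166) or 2 (0.0519), and nad9 without 0 min replicate 2 (0.0571) or 60 min replicate 3 (0.0702). In the plastid, petB of the cytochrome b6f complex rose by 0.40 and atpA of the ATP synthase fell by 1.56 ± 0.52 on the log2 scale. Each of these calls was lost without any of 4 arrays, 0 min replicates 1 and 2 and 60 min replicates 1 and 2 for petB (0.1 to 0.178), and 0 min replicates 2 and 3 and 60 min replicates 1 and 3 for atpA (0.0919 to 0.157). The part of poly(A) labelling in these values was not tested.

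**Figure D3:**
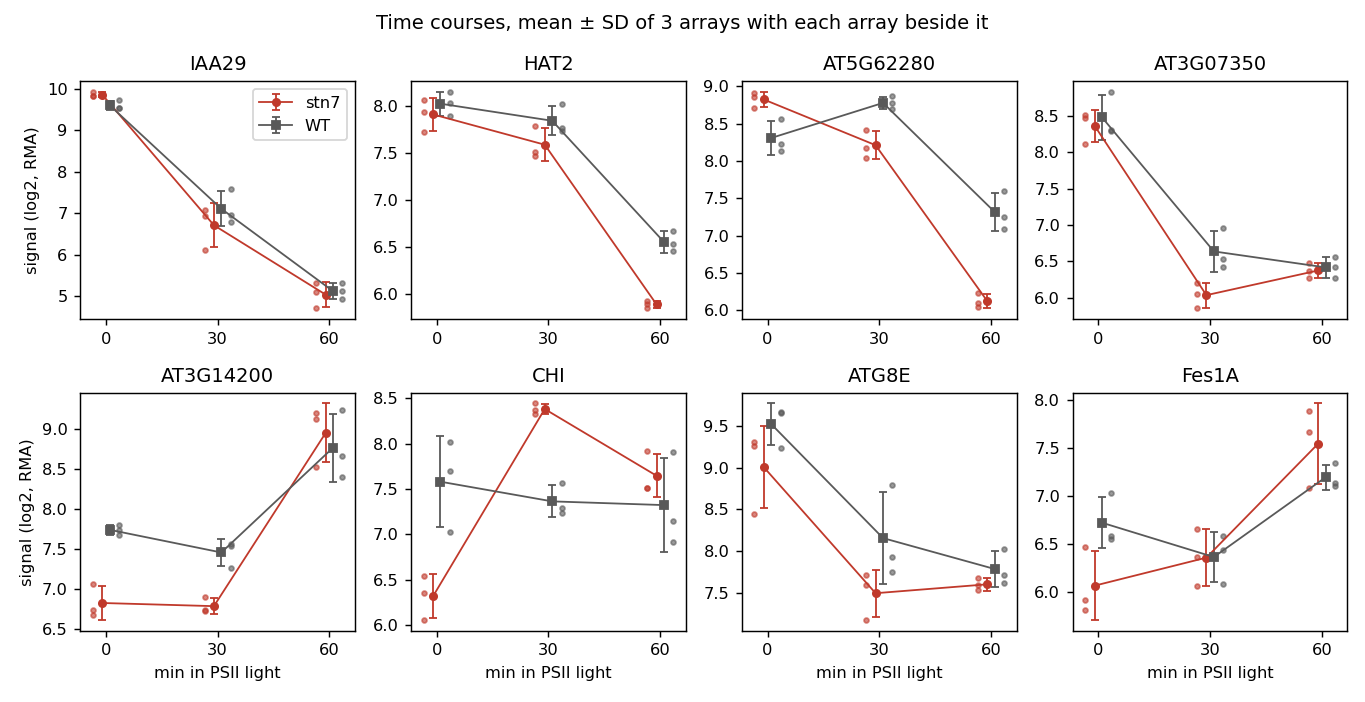
Log2 signal at 0, 30 and 60 min in PSII light for 8 genes, as mean ± SD of 3 arrays with each array as a small point, circles for stn7 and squares for WT. IAA29 falls in steps, HAT2 and AT5G62280 fall mostly after 30 min in stn7, AT3G07350 and ATG8E are already low at 30 min, CHI is highest at 30 min in stn7 (8.38) and AT3G14200 rises after 30 min.

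The stn7 samples at 30 min place a change before or after that time. The 3' to 5' difference was 1.85 ± 0.15 in stn7 at 60 min, against 1.61 ± 0.05 in stn7 at 30 min (SD, n = 3). Between 30 and 60 min 3702 probe sets differed (16.3%), 1675 higher (7.36%) and 2027 lower (8.91%), in a comparison that shares the 60 min arrays with the one above. Median centring changed this split to 2263 higher and 1623 lower. The count was 2302 without 30 min replicate 2, 1551 without 30 min replicate 3, 2279 without 60 min replicate 1, 2295 without 60 min replicate 2. Adjusted for the 3' to 5' difference it was 385. The counts and courses of single genes given next are without that adjustment. Of the 25 largest falls 17 were also lower at 60 min than at 30 min and 0 higher, and of the 25 largest rises 21 were also higher and 1 lower. These counts say nothing of the first 30 min, and the genes were picked on the same 60 min arrays. IAA29 averaged 9.86 at 0 min, 6.71 at 30 min and 5.03 at 60 min, a fall both before and after 30 min. HAT2 averaged 7.91 at 0 min, 7.59 at 30 min and 5.89 at 60 min, with nearly all of its fall after 30 min (-1.70, adjusted p = 2.2e-07). AT5G62280 took the same course, with 8.82 at 0 min, 8.21 at 30 min and 6.12 at 60 min.

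The course after 30 min differed from gene to gene, again without adjustment for the 3' to 5' difference. AT3G07350 averaged 8.36 at 0 min, 6.03 at 30 min and 6.37 at 60 min. Its later change of 0.34 did not pass (adjusted p = 0.17). ATG8E averaged 9.01 before the shift, 7.50 after 30 min and 7.60 after 60 min. AT1G23390 had means of 9.34 before the shift, 7.04 after 30 min and 7.74 after 60 min, so part of its fall was reversed after 30 min (0.70, adjusted p = 0.0054). GI was likewise raised at 30 min (8.92) and stayed there (-0.05, adjusted p = 0.83). CHI, a chitinase gene, was highest at 30 min, with 8.37, 8.33 and 8.44, against 7.51, 7.51 and 7.92 at 60 min, a decline of 0.74 on the log2 scale (adjusted p = 0.039), yet it was still above its 0 min arrays of 6.35, 6.54 and 6.06 (1.33 ± 0.23 at 60 min). AT3G14200 moved late: its 30 min arrays of 6.73, 6.90 and 6.74 resembled the 0 min arrays of 6.67, 7.07 and 6.74, and its 60 min arrays of 8.53, 9.20 and 9.14 were 4.37-fold above the 0 min mean (2.13 ± 0.19, adjusted p = 8.24e-07). AT4G10270 followed the same late course, with means of 4.31 at 0 min, 4.48 at 30 min and 6.07 at 60 min. The wall genes XTH33, XTH16 and EXLA1 rose after 30 min by 1.39, 1.197 and 1.28.

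The same 60 min in WT, on arrays not shared with stn7, tells which of these changes also occur with the kinase present. In WT 7439 probe sets differed (32.7%), 3688 higher (16.2%) and 3751 lower (16.5%). WT 0 min replicates 1 and 3 stood apart from all other arrays on the first principal component (-53.4 and -54.8, with the third WT 0 min array at -26.3), and without them 1937 passed in WT (956 higher and 981 lower). Of the 3769 calls in stn7, 1482 were also called in WT in the same direction, which is 39.3% of the stn7 calls and 19.9% of the WT calls, and 474 in the opposite direction (12.6% and 6.37%). Without both outlying arrays 873 had the same direction (23.2% of the stn7 calls and 45.1% of the WT calls) and 38 the opposite. Of the 25 largest falls in stn7 22 also fell in WT and 1, AT2G01100, rose, and of the 25 largest rises 20 also rose and 0 fell. IAA29 fell by 4.48 on the log2 scale in WT, to 5.12, 4.92 and 5.30 at 60 min against 9.54, 9.53 and 9.73 at 0 min, and the difference between the genotypes was -0.34 ± 0.31 (adjusted p = 0.495). The median change of the shade avoidance list was -0.99 in stn7 and -0.94 in WT with all arrays, and that of the low-energy list was -1.48 and -1.46. Both lists were chosen with earlier results of these data known, so these medians are descriptions and no independent evidence of a shared response.

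**Figure D4:**
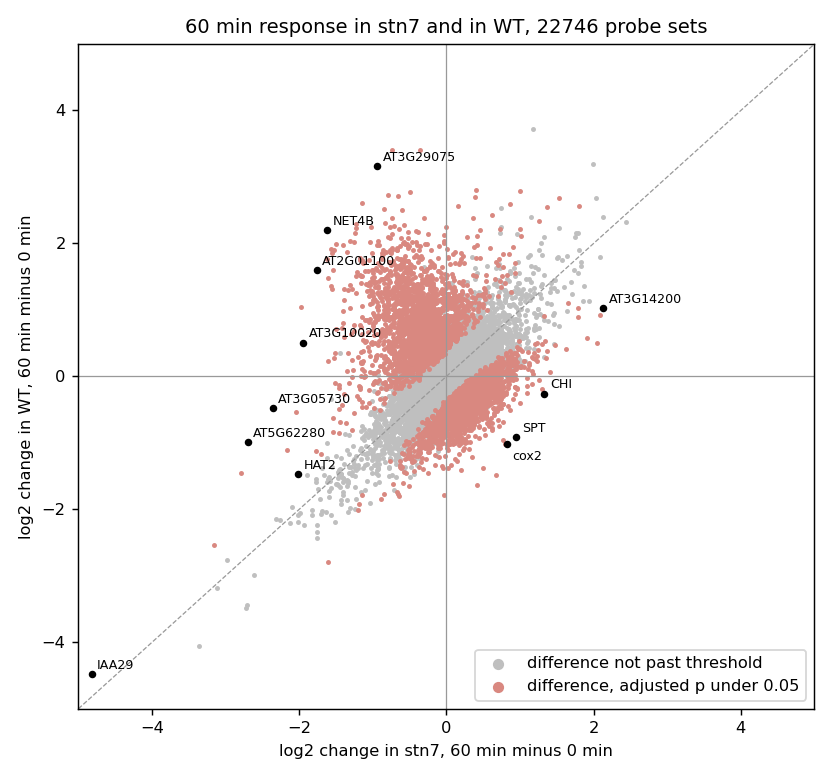
Log2 change at 60 min in stn7 (horizontal) and in WT (vertical) of 22746 probe sets, with pink points where the responses differed at an adjusted p of 0.05 and labelled genes in black. IAA29 and HAT2 lie near the dashed line of equal change, though HAT2 fell by more in stn7 (difference -0.55). AT3G29075, NET4B and AT2G01100 lie in the upper left, with a rise in WT only. Pearson's r across probe sets, which share these 12 arrays, was 0.159. It was 0.32 without both outlying WT 0 min arrays, and 0.54 with the within-group axis (described below) as a covariate.

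The response of 5091 probe sets (22.4%) differed between stn7 and WT in a direct test of the difference, 2528 higher in stn7 (11.1%) and 2563 lower (11.3%). Among differences of at least 2-fold 190 were higher and 1226 lower. This count rests on the WT 0 min arrays. Without the outlying WT 0 min replicates 1 and 3 it was 742 (3.26%; 219 higher and 523 lower). A further fit had as covariate the within-group axis, the main direction in which arrays of 1 group differ from each other (28.0% of the variance within groups), and there it was 0 (0.0%) in limma, with 1948 at an unadjusted p under 0.05. On this axis the WT 0 min arrays scored -45.7 to -9.86, the WT 60 min arrays 9.66 to 18.4, the stn7 60 min arrays -28.8 to 1.16 and the stn7 0 min arrays -14.8 to 25.3. With the median of each array set equal, the split was 4341 higher and 2106 lower, as the median of all differences then moved to 0.20, against 0.08 without that step.

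The following genes were lower in the stn7 response. AT2G01100 had 7.16, 7.01 and 7.63 in stn7 at 60 min and 9.76, 8.64 and 8.70 in stn7 at 0 min, and 9.39, 9.15 and 8.85 in WT at 60 min and 7.10, 8.18 and 7.33 in WT at 0 min. It fell in stn7 and rose in WT (difference -3.36 ± 0.49, adjusted p = 0.000481, and 0.026 without both outlying arrays). AT3G29075 had 5.75, 6.06 and 6.71 in stn7 at 60 min and 8.27, 6.98 and 6.09 in stn7 at 0 min, where the groups overlapped, and 8.48, 8.87 and 8.53 in WT at 60 min and 5.10, 6.37 and 4.94 in WT at 0 min. Its difference of -4.10 ± 0.66 came largely from WT. U2AF35B (-2.26) and TGH (-2.02) also rose in WT, by 1.22 and 0.77, as did DDL by 0.98, and their differences without both outlying arrays were -1.84 (adjusted p = 0.019), -1.72 (0.019) and -2.03 (0.082). AT5G62280 fell in both genotypes and by more in stn7 (-2.70 ± 0.13 in stn7 and -0.99 in WT; difference -1.71 ± 0.19, adjusted p = 0.000309, and 0.0095 without both outlying arrays). AT3G10020 had 9.06, 8.81 and 8.59 in WT at 60 min and 8.29, 8.53 and 8.11 in WT at 0 min, so the fall in stn7 had no counterpart there (difference -2.45 ± 0.30, and 0.018 without both outlying arrays). SECE1 changed by less than 0.01 in WT, and its difference was -1.10 ± 0.17 (adjusted p = 0.000661, and 0.022 without both).

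In the other direction, the difference was positive for SPT (SPATULA, a bHLH regulator of growth), which had 6.97, 6.67 and 6.56 in stn7 at 60 min and 5.30, 5.88 and 6.16 in stn7 at 0 min, and 5.58, 5.45 and 5.66 in WT at 60 min and 6.56, 6.36 and 6.52 in WT at 0 min. SPT rose in stn7 and fell in WT (1.87 ± 0.27, adjusted p = 0.000452, and 0.02 without both outlying arrays). The mitochondrial cox2 took the same course (1.84 ± 0.26, and 0.019 without both), and so did MSRB9, a methionine sulfoxide reductase gene (1.38 ± 0.23, and 0.035 without both). SWEET16, a sugar transporter gene of the vacuole, had 8.498, 7.86 and 7.61 in stn7 at 60 min and 6.50, 7.45 and 7.63 in stn7 at 0 min, groups that overlapped, and 6.93, 6.997 and 6.94 in WT at 60 min and 8.08, 7.84 and 8.02 in WT at 0 min (difference 1.82 ± 0.34, and 0.048 without both). CHI averaged 7.65 in stn7 at 60 min and 6.32 in stn7 at 0 min, and 7.32 in WT at 60 min and 7.58 in WT at 0 min (difference 1.59 ± 0.33, adjusted p = 0.00291), a call that was lost without both outlying arrays (1.04, adjusted p = 0.098). The largest positive differences, of THI2.1 (a thionin gene, 2.16 ± 0.66) and AT1G54020 (2.05 ± 0.64), were not called without both outlying arrays (adjusted p = 0.254 and 0.222), and THI2.1 spanned 4.31 to 6.88 among the 3 stn7 arrays at 0 min. Without 1 array THI2.1 was lost for WT 0 min replicate 1 (0.0688), WT 60 min replicate 3 (0.0524), stn7 0 min replicates 1 (0.0768) and 2 (0.0673) and stn7 60 min replicates 1 (0.0617) and 2 (0.0538), and AT1G54020 for WT 0 min replicate 1 (0.0718), WT 60 min replicates 1 (0.0555) and 3 (0.0522), stn7 0 min replicates 1 (0.0804) and 2 (0.0653) and stn7 60 min replicate 1 (0.0842).

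The photosystem, antenna and chlorophyll genes had small differences between the genotypes. With all arrays 2 of 10 photosystem and antenna genes (median difference -0.21) and 4 of 8 chlorophyll genes (-0.35) passed as lower in stn7. In both lists 0 passed as higher, against 11.3% lower and 11.1% higher over all probe sets. LHCB4.2 changed by -0.18 in WT (adjusted p = 0.18), and the difference was -0.43 ± 0.14 (adjusted p = 0.0332), not called without both outlying arrays (-0.51, adjusted p = 0.11). PORB changed by -0.09 in WT, with a difference of -0.50 ± 0.16 (0.0319, and 0.48 without both outlying arrays). HAT2 fell more in stn7, with a difference of -0.55 ± 0.16 (adjusted p = 0.0214, and 0.23 without both outlying arrays). CHLM (-0.18) and PSB27 (-0.23) did not pass the test of the difference. GI rose in stn7 but changed by 0.11 in WT (difference 0.50 ± 0.14, adjusted p = 0.0172, and 0.11 without both), and its 0 min arrays in stn7 (8.17 to 8.35) lay under those of WT (8.51 to 8.66).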

How the data were processed

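Rosette leaf RNA of 6 groups, with 3 pools each, was hybridised to 18 Affymetrix arrays of 1 colour after biotin labelling primed on poly(A). The deposited values are log2 signals per probe set, which the authors made with GCOS, Affymetrix Expression Console 1.1 and RMA, per the submitters' processing notes; how RMA was set, and with which probe set definition, is not given in the sources used here. After removal of 64 controls from 22810 probe sets, 22746 entered the tests, unfiltered and not rescaled. The gene table gave 1 gene for 13513 of them (59.4%), several for 503 and none for 8730, which were tested but not named; 13436 matched RefSeq (TAIR10.1).

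The tests used limma 3.58.1 (R 4.3.3), with all 18 arrays in 1 fit and each group given its own mean (lmFit, then contrasts.fit and eBayes; 17.8 degrees of freedom, 5.8 of them prior), two-sided, with Benjamini-Hochberg adjustment over 22746 probe sets. The script was tested on simulated data. Named genes were the 25 largest rises and 25 largest falls that passed and did not overlap, the 10 largest differences in each direction, and up to 8 passing members of a list (or 4 with the smallest p); others are said to be chosen after their values were seen. Of 31 gene lists 26 had a measured member, with the brightest probe set per gene. The members and lists were chosen with earlier results of these data known. Precision is limited by the number of arrays, and pools show no spread between single plants. A planned search of promoter motifs was not made. Python 3.11.15, pandas 2.3.3 and matplotlib 3.10.9 made the tables and plots. The alternatives are given in the closing section.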

Additional observations from a re-analysis of the deposited data

Results flagged for a closer look

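For 64 named genes the change at 60 min differed between stn7 and WT at an adjusted p under 0.05 in limma, given here as the stn7 change less that of WT, on the log2 scale. The response was lower in stn7 for 33 of them. The largest of these differences were those of AT3G29075 (-4.10), NET4B (-3.82), AT5G66060 (-3.76), AT5G16730 (-3.52), AT2G40650 (-3.52), AT2G02160 (-3.49), AT2G44760 (-3.46), AT1G64330 (-3.37), AT2G01100 (-3.36), AT4G08310 (-3.28), 3xHMG-box2 (-2.86) and ATERDJ3B (-2.48). Those between -2.5 and -1 were AT3G10020 (-2.45), DDL (-2.39), U2AF35B (-2.26), TGH (-2.02), TOPII (-1.91), AT3G05730 (-1.88), CYP59 (-1.87), AT5G62280 (-1.71), UGT73B1 (-1.68), AT5G48570 (-1.57), AT1G72900 (-1.15) and SECE1 (-1.0998). The smaller ones were UGT76C1 (-0.67), AT3G62950 (-0.62), MCCB (-0.61), TAPX (-0.56), HAT2 (-0.55), AT3G16800 (-0.52), PORB (-0.50), LHCB4.2 (-0.43) and PSBY (-0.36). The response was higher in stn7 for 31 genes. The largest were those of THI2.1 (2.16), AT1G54020 (2.05), SPT (1.87), cox2 (1.84), SWEET16 (1.82), AT5G40020 (1.76), AT2G07741 (1.72), AT1G14120 (1.61), CHI (1.59) and AT4G21870 (1.55). Those near 1 were MSRB9 (1.38), nad5 (1.25), ccb452 (1.16), XTH16 (1.13), AT3G14200 (1.1001), AT2G31730 (1.07), Fes1A (1.01), AT3G28270 (0.89) and SWEET11 (0.86). The smaller ones were AOP1 (0.85), nad9 (0.81), AT1G61890 (0.76), CYTC-2 (0.73), ACT11 (0.69), PDC2 (0.61), PEX4 (0.60), RHF1A (0.59), BRH1 (0.58), GLR2.7 (0.56), GI (0.50) and OCT5 (0.43).

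The choice of most of these genes rested on their change in stn7, which is part of the difference. Without the outlying WT 0 min replicates 1 and 3, 23 of the 64 passed, and adjusted for the within-group axis 0 passed in limma (1948 of all 22746 probe sets were then at an unadjusted p under 0.05). Without both arrays, the 10 largest differences in each direction were -3.22 to -2.50 for those lower in stn7 and 1.04 to 1.77 for those higher. With the axis these differences were -1.40 to -0.65 and -0.10 to 1.501, and 0 of the 20 passed.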

How the results depend on the processing

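For stn7 at 60 min against 0 min, 3754 probe sets passed with median centring, 3844 with quantile normalization, 3892 after a filter at the 30th percentile of signal, 3609 with a trended robust variance, 4142 with array weights and 2653 in a fit to only the groups compared. Leaving out 1 array gave 2638 to 3637. Adjusting for the 3' to 5' difference gave 2135, and other counts were 2130 without both stn7 60 min arrays of highest 3' to 5' difference, 3558 with the within-group axis (the last 2 alternatives, as all with that axis or without both WT 0 min arrays, were chosen after seeing the data) and 441 at a 2-fold minimum. For stn7 at 60 min against 30 min, adjusting for the 3' to 5' difference gave 385 and for the axis 1110, and other counts were 406 at a 2-fold minimum and 1551 to 3887 without 1 array. In WT, dropping both outlying 0 min arrays gave 1937, adjusting for the axis 1272, and other counts were 1294 at a 2-fold minimum (2874 higher and 6287 lower with median centring, which moved the median of all changes to -0.17, against -0.05) and 5865 to 7791 without 1 array. For the difference in response they were 742, 0 (1948 at an unadjusted p under 0.05 in limma), 1416 (190 higher and 1226 lower) and 3560 to 6043. The cause of these changes was not tested. With the replicate number as a replicate block 3460 passed for stn7 at 60 min (1860 higher and 1600 lower), 4702 for the difference; deviations of same-numbered stn7 arrays at 60 and 0 min correlated at -0.32, 0.33 and -0.37, so that the numbers were not taken to pair samples. AT1G54020 reversed under the axis (-0.10, against 2.05). Of the named genes 37 lost their call for stn7 at 60 min under 1 or more alternatives and 0 reversed. Dim probe sets lie near background, which limits their changes.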
